A study of Homo sapiens with 4 samples.

Results

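Kinesins are motor proteins that use ATP to move along microtubules. One branch of the family works in dividing cells, where it separates the spindle poles, aligns the chromosomes and builds the midzone at which the daughter cells part, and the RNA of these genes is known to be highest late in the cell cycle. The other branch carries vesicles, organelles, RNA and ciliary components, and several of its members are best known from neurons. The 40 human genes with a KIF symbol analyzed here were chosen by name, with earlier results of these data known: 12 mitotic kinesins, 17 transport kinesins and 11 ciliary or other kinesins, of 22439 genes that could be named on the arrays. A probe counted for a gene if the RefSeq accession printed for it on the array mapped to the gene's symbol, with control spots dropped. This gave 58 probes, with more than 1 probe for 15 of the genes.

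Gene expression was measured on 4 one-color Agilent arrays of A549, an established human lung adenocarcinoma line grown in RPMI medium. Cells that received *miR-486-5p* were measured on 1 array, as were cells that received *miR-486-3p*, the opposite strand of the same precursor. The 2 mock arrays held RNA of cells treated with the transfection reagent (Lipofectamine RNAiMAX) and no miRNA. The mock cells received no control miRNA, so an effect of transfecting any miRNA cannot be told apart from that of the strand. The arrays shared 1 slide and 1 scan, and between 30690 and 31516 of 58201 probes were well above background on each.

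The labelled cell line was set against markers. Of 9 genes listed for A549, 6 had a probe well above background on all 4 arrays, among them the keratins *KRT7*, *KRT8* and *KRT18*. *CDH1* was well above background on no array, *AKR1B10* on the *miR-486-3p* array alone and *EPCAM* on the *miR-486-5p* array and 1 mock array, so the line named in the labels was not borne out by these 3 markers. Of the other cell types, alveolar markers were detected on all 4 arrays for 2 of 3 genes, leukocyte markers for 2 of 2, endothelial markers for 1 of 2 and fibroblast markers for 0 of 2. *PECAM1* and *COL1A2* were well above background on no array, and *PTPRC* was so on all arrays by 2 of its 5 probes and on none by the other 3. The part of such signals in the kinesin results was not tested.

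Levels are given as scaled log2 signals, the log2 of the background-corrected signal minus the 75th percentile of the array. A log2 difference is taken from the mean of both mock arrays to the transfected array and averaged over a gene's probes. A gene was counted as lower below −0.5 and as higher above 0.5, and limma was fitted to every probe that passed the background flag in some group, with a Benjamini-Hochberg adjusted p under 0.05 as the threshold. Since each strand has 1 array, limma assumed that this array varied as the mock arrays did. The labels do not say whether the mock arrays came from separate cultures, so the p-values measure only the spread between them, which may be technical, and no value is more precise than so few arrays allow. For the 28246 probes that passed the background flag throughout, the SD of the difference from mock to mock was 0.20. Over the kinesin probes among them, the median size of that difference was 0.09 and the largest was 0.35. A probe that was not well above background on one side gives a bound. limma used its signal as measured, so an adjusted p printed beside a bound belongs to another difference. In these bulk samples, fewer cells of a kind and less RNA per cell cannot be told apart.

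The mitotic kinesins were lower after both strands, and more so after *miR-486-3p*. After *miR-486-3p*, 12 of 12 were below −0.5, against 27.2% of all 16446 genes with a value, and their median difference was −2.73 against 0.06 for all genes. limma called 12 of 12 lower (31.6% of all genes). After *miR-486-5p*, 11 of 12 were below −0.5, against 15.9% of 16024 genes, with a median of −0.88 against 0.03, and limma called 5 lower (6.66% of all genes). The transport kinesins had no common direction. After *miR-486-3p*, 3 of 17 were below −0.5 and 6 were above 0.5 (30.4% of all genes were above), with a median of 0.26, and limma called 4 lower and 9 higher (31.9% of all genes were called higher). After *miR-486-5p*, 3 were below −0.5 and 1 was above 0.5 (13.8% of all genes were above), with a median of −0.0047. There limma called 2 lower and 0 higher, beside 6.66% and 3.58% of all genes. The mitotic median minus the transport median was −2.99 with *miR-486-3p* and −0.87 with *miR-486-5p* on the log2 scale, and −2.24 and −0.80 with the normexp background correction. Genes of a class are not replicates, so these counts and medians are descriptions.

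**Figure D1:**
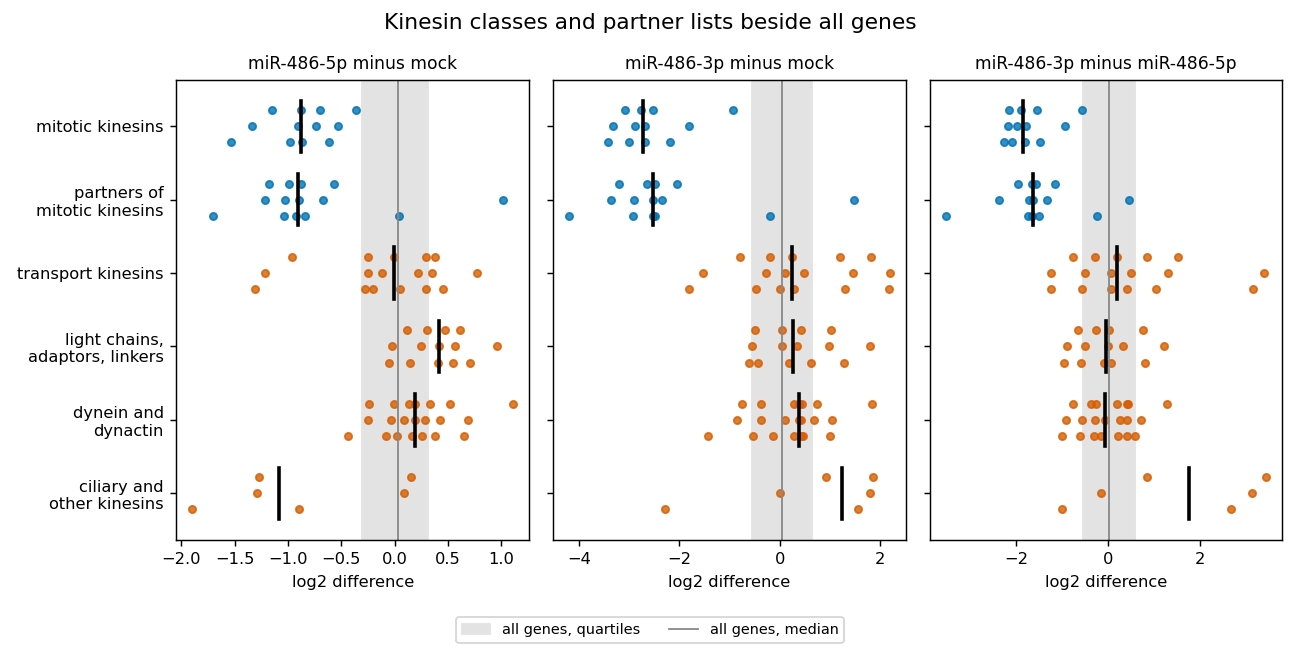
Log2 differences (x axis) of the genes of each kinesin class and partner list (y axis) for *miR-486-5p* against mock, *miR-486-3p* against mock and *miR-486-3p* against *miR-486-5p*. Each point is 1 gene, black bars are list medians, and the gray band and line give the quartiles and the median of all genes. The mitotic kinesins sit to the left of the gray band in every panel, with medians of −0.88, −2.73 and −1.85, whereas the transport kinesins lie on both sides of it.

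The mitotic kinesins also had promoter sequence in common. It was not used to choose them, but the motifs searched were ones already known from such genes. Their counts describe the promoters and are no result of the arrays. Promoters of genes expressed late in the cell cycle are known to carry the cell cycle genes homology region (CHR), whose core is TTTGAA, and CCAAT boxes, which bind NF-Y. Both strands were searched in the RefSeq promoter windows of the GRCh38.p14 assembly, which run from 250 bases before to 50 bases after the annotated start and which 32 of the 40 kinesin genes had. Of the 35116 windows, 1 a gene was used, the one farthest upstream, and shares of all windows are over these. TTTGAA was found in 9 of 12 mitotic kinesins (75%), 1 of 12 transport kinesins (8.33%, *KIF5B*) and 0 of 8 others, and in 15.5% of the windows of 27305 genes. CCAAT was found in 10 of 12 mitotic kinesins (83.3%), 4 of 12 transport kinesins (33.3%) and 35.7% of all windows. Both motifs were present in 8 mitotic kinesins (66.7%) and in 6.13% of all windows. The E2F motif TTCCCGC was found in 0 of 12 mitotic kinesins (6.55% of all windows) and TTGGCGC in 3 of 12 (25%, against 3.1%). Of the transport kinesins, 2 of 12 held TTCCCGC and 1 of 12 TTGGCGC, so that 3 of 12 of either class held an E2F motif. A match is a run of letters and not a measured binding site. In 5 mitotic kinesins TTTGAA began 10 to 55 bases before the start. These are shown here in the direction of the gene, with the motifs in capitals (TTTGAA or its reverse complement TTCAAA, and ATTGG for CCAAT on the other strand; GCGCCAA in *KIF15* is TTGGCGC on the other strand).
*KIF11*, chr10:92593090-92593119, plus strand: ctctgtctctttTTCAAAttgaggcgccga
*KIF15*, chr3:44761747-44761776, plus strand: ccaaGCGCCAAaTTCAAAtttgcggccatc
*KIF18A*, chr11:28108157-28108186, minus strand: gctgaggaaagtggcttgggTTTGAAtatt
*KIF4A*, chrX:70290058-70290087, plus strand: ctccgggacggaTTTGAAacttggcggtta
*KIF23*, chr15:69414282-69414311, plus strand: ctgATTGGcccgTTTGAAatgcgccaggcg

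In 10 mitotic kinesins a CCAAT box lay before the start, and the one nearest to it began 22 to 98 bases away. Stretches are shown for 4 in which no TTTGAA was found before the start, with CCAAT or its reverse complement ATTGG in capitals.
*KIF20A*, chr5:138179033-138179062, plus strand: cttccctatctgATTGGccgaacgaacgca
*KIF22*, chr16:29790673-29790702, plus strand: cgcgtagtcttgATTGGtggaacctgggag
*KIFC1*, chr6:33391765-33391794, plus strand: gcgacagcgacgATTGGtccctgcgtgcag
*KIF14*, chr1:200620756-200620785, minus strand: gacgcccagcagCCAATcagaaggcggggc
*KIF2C* had none of the 4 motifs in the 1 window searched.

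**Figure D2:**
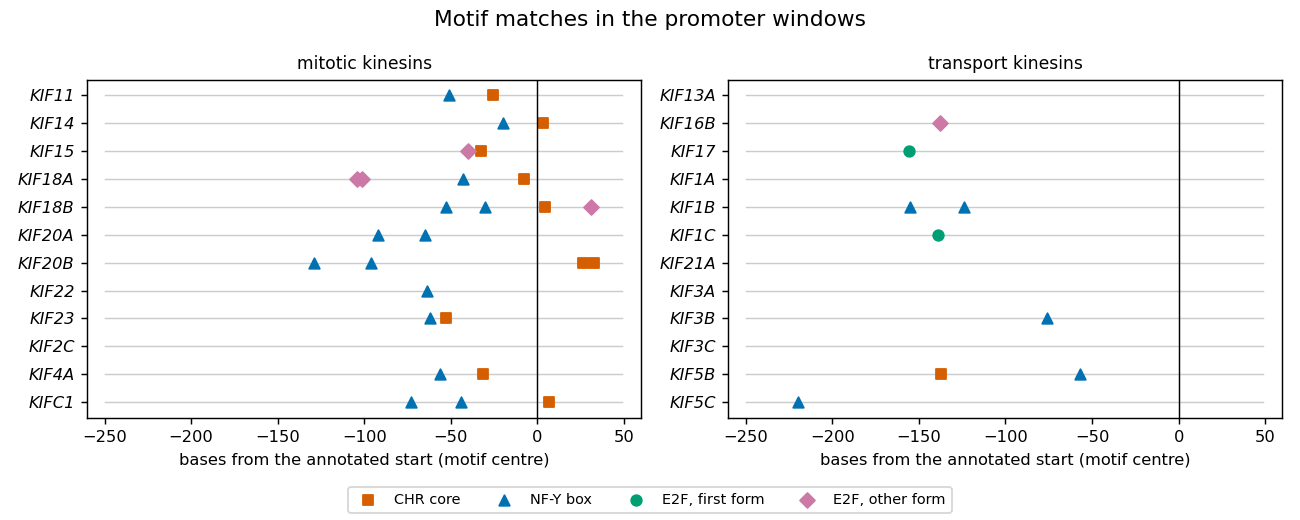
Positions of motif matches (x axis, bases from the annotated start; y axis, gene) in the promoter windows of 12 mitotic kinesins (left) and 12 transport kinesins (right). Orange squares are the CHR core TTTGAA, blue triangles CCAAT, and circles and diamonds the E2F motifs TTCCCGC and TTGGCGC; orange squares stand in 9 rows on the left and in 1 row on the right.

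Among the motors that keep the spindle bipolar, *KIF11* (Eg5), which slides the poles apart, had scaled log2 signals of 2.98 and 2.88 on the mock arrays, 2.19 with *miR-486-5p* and −0.08 with *miR-486-3p*. *KIF15*, which backs up *KIF11*, had 1.76 and 1.54 on the mock arrays, 0.31 with *miR-486-5p* and −1.78 with *miR-486-3p*. *KIFC1* (HSET), which moves the other way along microtubules and focuses the poles, had 2.28 and 2.39 on the mock arrays, 1.19 with *miR-486-5p* and −0.36 with *miR-486-3p*. In all 3 genes both transfected arrays lay below both mock arrays, and the *miR-486-3p* array was the lowest. After *miR-486-3p* the signal was 10.8-fold lower for *KIF15* (log2 difference −3.43, SE 0.15), 8.05-fold lower for *KIF11* (−3.01, SE 0.10) and 6.47-fold lower for *KIFC1* (−2.69, SE 0.10), each called by limma (adjusted p = 0.0076). After *miR-486-5p* the differences were smaller, and limma called *KIFC1* alone of these (−1.15, adjusted p = 0.0475). *KIF15* (−1.34, adjusted p = 0.05003) and *KIF11* (−0.74, adjusted p = 0.0558) missed the threshold.

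Among the motors that attach and align chromosomes, *KIF2C* (MCAK), which takes microtubules apart at the centromere, had scaled log2 signals of 5.06 and 5.08 on the mock arrays, 4.16 with *miR-486-5p* and 1.98 with *miR-486-3p*. *KIF18A*, which damps the swings of aligned chromosomes, had 0.93 and 0.86 on the mock arrays, 0.29 with *miR-486-5p* and −1.88 with *miR-486-3p*. *KIF22* (Kid), which pushes on chromosome arms, had 3.03 and 3.06 on the mock arrays by 1 of its 2 probes, 2.17 with *miR-486-5p* and 0.31 with *miR-486-3p*. The same order held for all 3, mock above *miR-486-5p* above *miR-486-3p*. *KIF4A*, a chromokinesin that also limits the length of the midzone, had 3.28 on each mock array by 1 of its 2 probes, 2.59 with *miR-486-5p* and 1.14 with *miR-486-3p*. Its probes may also read *KIF4B*, a near-identical copy. After *miR-486-3p* the signal was 8.49-fold lower for *KIF2C*, 6.83-fold for *KIF18A*, 6.42-fold for *KIF22* and 4.53-fold for *KIF4A*, and limma called every probe of these genes lower (adjusted p = 0.0076). After *miR-486-5p* the log2 differences were −0.90, −0.61, −0.88 and −0.70, and limma called *KIF2C* (adjusted p = 0.0479) and 1 of the 2 probes of *KIF22* (adjusted p = 0.0484).

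*KIF18B*, which trims the astral microtubules of the spindle, was the least certain of the mitotic kinesins. One probe read −3.14 and −2.85 on the mock arrays, −3.14 with *miR-486-5p* and −4.05 with *miR-486-3p*. The other probe read −3.37 and −3.82 on the mock arrays, −4.18 with *miR-486-5p* and −5.01 with *miR-486-3p*, where it was not well above background. limma used the dim signal as measured and called both probes lower after *miR-486-3p*. Their limma differences were −1.05 and −1.42 (adjusted p of 0.0284 and 0.0314). The mean difference, with the dim side taken as a bound, was −0.93, a decrease of at least 1.90-fold. With the normexp background correction in place of that of the scanner software, this difference turned to 0.0102. After *miR-486-5p* the difference was −0.37, and 1 of the probes lay within the range of the mock arrays.

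Among the motors of cytokinesis, *KIF20A* (MKLP2), which brings the chromosomal passenger complex to the midzone, had scaled log2 signals of 2.55 and 2.51 on the mock arrays, 1.00 with *miR-486-5p* and −0.79 with *miR-486-3p*. *KIF14*, a partner of citron kinase, had 1.66 and 1.53 on the mock arrays, 0.61 with *miR-486-5p* and −1.29 with *miR-486-3p*. *KIF23* (MKLP1), the motor subunit of centralspindlin, had 4.69 and 4.53 on the mock arrays by 1 of its 2 probes, 4.06 with *miR-486-5p* and 2.09 with *miR-486-3p*. In these 3 genes the *miR-486-3p* array was again the lowest and the *miR-486-5p* array lay between it and the mock arrays. *KIF20B* had 2 probes of unequal size of change. One read −0.53 and −0.57 on the mock arrays, −1.59 with *miR-486-5p* and −3.14 with *miR-486-3p*, and the other read −0.14 and −0.13, −0.84 and −1.16 in the same order. The difference after *miR-486-3p* was thus −2.58 by 1 probe and −1.02 by the other, and limma called both lower (adjusted p of 0.0076 and 0.0111). After *miR-486-3p* the signal was 10.02-fold lower for *KIF20A* (log2 difference −3.33, SE 0.09), 7.39-fold for *KIF14* and 5.76-fold for *KIF23*, each called by limma (adjusted p = 0.0076). After *miR-486-5p*, *KIF20A* showed the largest difference of the 12 mitotic kinesins (−1.54, limma adjusted p = 0.0475), and 1 of the 2 probes of *KIF20B* was called too (−1.04, adjusted p = 0.0475). *KIF14* (−0.99, limma adjusted p = 0.0503) and *KIF23* (−0.54 over its 2 probes) were not called.

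The calls after *miR-486-5p* stood close to the threshold. The adjusted p-values of the probes called lower among the 35 kinesins tested lay between 0.0475 and 0.0496, and limma with an intensity trend called 21 kinesins lower and 5 higher (25% and 22.2% of all genes) in place of 11 and 0. On the log2 values deposited by the authors limma called no gene at all after *miR-486-5p*, kinesin or other. The smallest limma adjusted p of a kinesin was then 0.0738.

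**Figure D3:**
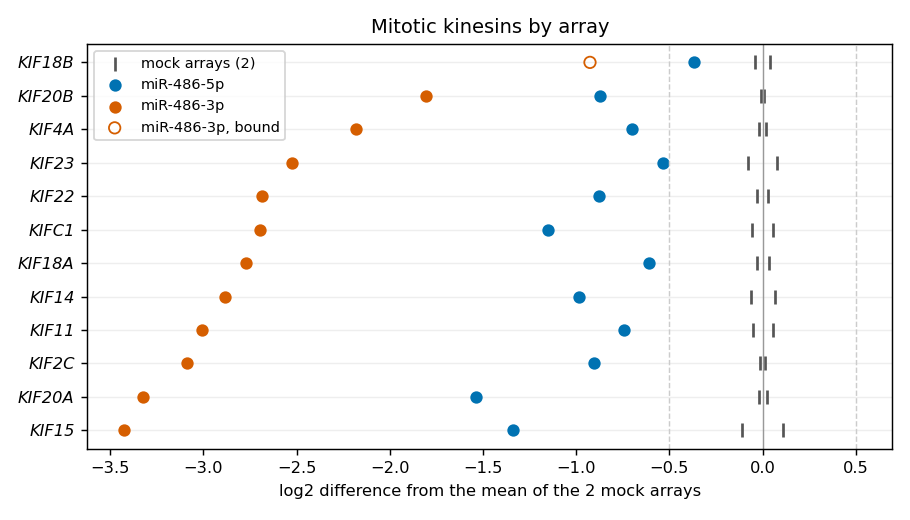
Log2 difference from the mock mean (x axis; 2 mock arrays) for each mitotic kinesin (y axis), averaged over its probes. Gray ticks are the mock arrays, blue points the *miR-486-5p* array and orange points the *miR-486-3p* array, and an open point is a bound. For all 12 genes both transfected arrays lie to the left of the mock arrays, and from *KIF20B* down the *miR-486-3p* point is at −1.80 or lower.

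The heavy chains of conventional kinesin moved apart. *KIF5C*, best known from neurons, had scaled log2 signals of 1.09 and 0.94 on the mock arrays, 0.05 with *miR-486-5p* and 3.21 with *miR-486-3p*. *KIF5A*, also a neuronal form, had −3.86 and −3.64 on the mock arrays, −2.98 with *miR-486-5p* and −1.92 with *miR-486-3p*. *KIF5B*, the form found in most cells, had 4.13 and 4.05 on the mock arrays by 1 probe, 4.10 with *miR-486-5p* and 4.08 with *miR-486-3p*. The *miR-486-3p* array was the highest of the 4 for *KIF5C* and *KIF5A*, while this probe of *KIF5B* stayed within the range of the mock arrays. By the other probe *KIF5B* was 0.58 higher after *miR-486-3p* (limma adjusted p = 0.0335). *KIF5C* was 4.60-fold higher after *miR-486-3p* (limma adjusted p = 0.0079), and *KIF5A* 3.55-fold higher (adjusted p = 0.0102). After *miR-486-5p*, *KIF5C* had a difference of −0.96 and *KIF5A* one of 0.77, and limma called neither (adjusted p of 0.0523 and 0.0726).

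The heterotrimeric motor of intraflagellar transport joins *KIF3A* to *KIF3B* or *KIF3C*. *KIF3A* had scaled log2 signals of 2.43 and 2.34 on the mock arrays by its brighter probe, 2.27 with *miR-486-5p* and 3.57 with *miR-486-3p*. *KIF3B* had 3.00 and 3.01 on the mock arrays, 3.36 with *miR-486-5p* and 4.21 with *miR-486-3p*. Both were highest on the *miR-486-3p* array, by 1.18 for this probe of *KIF3A* (limma adjusted p = 0.0110) and by 1.21 for *KIF3B* (adjusted p = 0.0094). The dimmer probe of *KIF3A* was well above background on 2 of the 4 arrays and was not called (1.76, limma adjusted p = 0.0624). *KIF3C* had differences of −0.25 and −0.19 after *miR-486-5p* and *miR-486-3p* and was not called. *KIF17*, which serves cilia and dendrites, had 0.05 and 0.01 on the mock arrays, −1.28 with *miR-486-5p* and −1.78 with *miR-486-3p*. limma called it lower after both strands, with differences of −1.31 (adjusted p = 0.0475) and −1.81 (adjusted p = 0.0077).

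Among the vesicle motors related to *KIF1A* whose probes agreed, 1 gene rose and 3 fell after *miR-486-3p*. *KIF1A*, which carries precursors of synaptic vesicles, had scaled log2 signals of −1.52 and −1.45 on the mock arrays, −2.70 with *miR-486-5p* and 0.69 with *miR-486-3p*. *KIF1C* had 5.92 and 5.89 on the mock arrays, 5.62 with *miR-486-5p* and 4.37 with *miR-486-3p*. *KIF13A*, which works on endosomes, had −1.98 and −1.88 on the mock arrays, −1.48 with *miR-486-5p* and −2.72 with *miR-486-3p*. *KIF1A* thus lay below both mock arrays after one strand and above both after the other, and limma called both differences, −1.22 (adjusted p = 0.0475) and 2.18 (adjusted p = 0.0076). *KIF1C* was 2.89-fold lower after *miR-486-3p* (limma adjusted p = 0.0082), *KIF13A* 1.73-fold lower (adjusted p = 0.0187) and *KIF13B* 1.39-fold lower (both probes called, adjusted p of 0.0378 and 0.0485). After *miR-486-5p* limma called none of these 3 genes, and their differences were −0.28, 0.45 and 0.29.

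For 2 of the vesicle motors the probes disagreed. By 1 of its 4 probes, *KIF1B* had scaled log2 signals of 2.10 and 1.98 on the mock arrays and 3.14 after *miR-486-3p*, a difference of 1.101 (limma adjusted p = 0.0128). Its other 3 probes, all listed by the accession of another transcript, had differences between −0.39 and −0.01 and were not called. *KIF16B*, which binds early endosomes, was 0.53 higher after *miR-486-3p* by 1 probe (limma adjusted p = 0.0334) and differed by −0.02 by the other, which is also listed by another transcript. Their means of 0.11 and 0.26 describe no single probe.

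Of the remaining transport kinesins, *KIFC2* had scaled log2 signals of −0.35 and −0.27 on the mock arrays by 1 of its 2 probes, −0.29 with *miR-486-5p* and 1.24 with *miR-486-3p*. limma called both of its probes higher after *miR-486-3p* (differences of 1.55 and 1.07, adjusted p of 0.0086 and 0.0188). *KIF21A* and *KIF21B*, which restrain microtubule growth, had differences of −0.28 and 0.00 after *miR-486-3p*, and *KIFC3* had one of 0.48. None of these 3 was called against mock after either strand.

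Among the ciliary and other kinesins, 6 of 11 had a value. *KIF24*, which takes apart centriolar microtubules and holds back cilium formation, had scaled log2 signals of 0.81 and 0.80 on the mock arrays, −0.49 with *miR-486-5p* and −1.49 with *miR-486-3p*. Its differences of −1.29 and −2.29 (limma adjusted p of 0.0475 and 0.0076) ran the way of the mitotic class. *KIF26A*, which lacks motor activity and restrains RET signaling, had −1.32 and −1.27 on the mock arrays, −2.57 with *miR-486-5p* and 0.58 with *miR-486-3p*. *KIF25* had −1.84 and −1.63 on the mock arrays, −3.63 with *miR-486-5p* and −0.17 with *miR-486-3p*. Both were the lowest after one strand and the highest after the other, and limma called each of these differences (−1.27 and 1.87 for *KIF26A*, adjusted p of 0.0475 and 0.0076, and −1.90 and 1.56 for *KIF25*, adjusted p of 0.0475 and 0.0118).

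*KIF9*, found in motile cilia and sperm tails, had scaled log2 signals of −3.49 and −3.94 on the mock arrays, −6.06 with *miR-486-5p*, where it was not well above background, and −1.92 with *miR-486-3p*. It was at least 1.86-fold lower after *miR-486-5p* and 3.47-fold higher after *miR-486-3p* (limma adjusted p = 0.0217). For *miR-486-5p* limma used the dim signal as measured, a log2 difference of −2.34 (adjusted p = 0.0496). *KIF7*, a ciliary regulator of Hedgehog signaling, was 0.94 higher after *miR-486-3p* (limma adjusted p = 0.0124) and 0.08 after *miR-486-5p*. *KIF2A*, a microtubule depolymerase of spindle poles and axons, had differences of 0.15 and 0.00 and was not called. *KIF6*, *KIF12* and *KIF26B* were well above background on no array, and *KIF19* and *KIF27* on 1 mock array alone, so these 5 genes gave no difference.

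**Figure D4:**
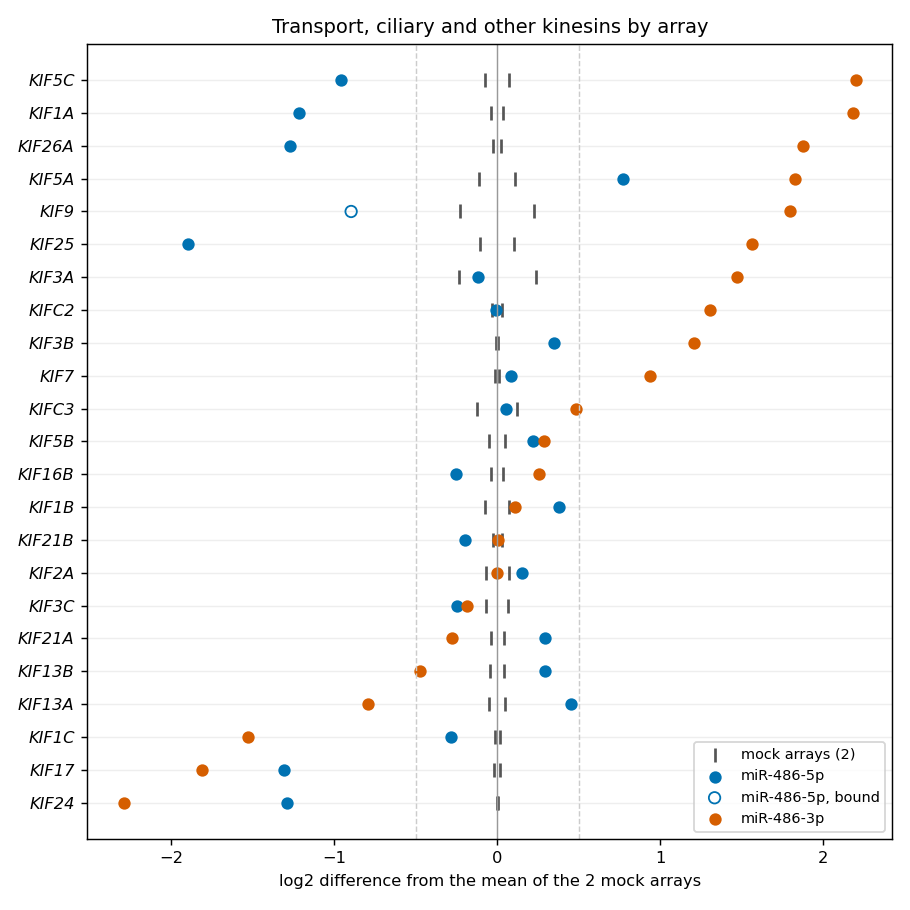
Log2 difference from the mock mean (x axis; 2 mock arrays) for each transport, ciliary or other kinesin with a value (y axis, ordered by the *miR-486-3p* value), averaged over its probes. Gray ticks are the mock arrays, blue points *miR-486-5p*, orange points *miR-486-3p*, and the open point a bound. The points of *KIF5C*, *KIF1A*, *KIF26A*, *KIF9* and *KIF25* lie below −0.5 for *miR-486-5p* and above 0.5 for *miR-486-3p*, while those of *KIF24* and *KIF17* lie below −1 for both.

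Of the 35 kinesins tested, with *miR-486-3p* limma called 17 lower (48.6%) and 13 higher (37.1%), beside 31.6% and 31.9% of all genes. The comparisons of both strands share the mock arrays, so a direction that a gene has in both is not independent evidence.

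The 2 transfected arrays were also compared directly. The difference then holds no mock value, but the limma p-values still rest on the spread between the mock arrays. The mitotic kinesins were lower after *miR-486-3p* than after *miR-486-5p* in 12 of 12 genes by more than 0.5, against 26.4% of 16561 genes, with a median difference of −1.85 and 0.03 for all genes. limma called 11 of 12 lower (27.3% of all genes), *KIF18B* being the exception (smallest adjusted p = 0.0535). The mitotic median minus the transport median was −2.05, and −1.20 with the normexp correction. *KIF11* showed the widest gap of the class, from 2.19 to −0.08 (−2.27, limma adjusted p = 0.0119). Of the transport kinesins, 5 were lower and 7 higher by more than 0.5 (28.6% of all genes were higher), and limma called 5 lower and 6 higher (26.7% of all genes were called higher). Among the kinesins whose difference was not a bound, the widest gaps were those of *KIF25* (10.995-fold), *KIF1A* (10.5-fold), *KIF5C* (8.93-fold) and *KIF26A* (8.86-fold), each higher after *miR-486-3p* with a limma adjusted p of 0.0119. *KIF9*, whose *miR-486-5p* signal was not well above background, was at least 6.46-fold higher. With that signal as measured, limma gave a difference of 4.14 (adjusted p = 0.0126). *KIF1C* and *KIF13A* were lower after *miR-486-3p*, with differences of −1.25 and −1.24 (limma adjusted p of 0.0143 and 0.0160).

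The genes that work with the mitotic kinesins were mostly lower as well. Of the 14 partners with a value, 12 were below −0.5 after each strand, with medians of −0.91 with *miR-486-5p* and −2.54 with *miR-486-3p*, beside 15.9% and 27.2% of all genes. limma called 7 and 13 of them lower (6.66% and 31.6% of all genes). *AURKB*, the kinase of the chromosomal passenger complex that *KIF20A* carries, had scaled log2 signals of 1.76 and 1.81 on the mock arrays, 1.12 with *miR-486-5p* and −2.42 with *miR-486-3p*. *INCENP*, the scaffold of that complex, had 2.16 and 2.26 on the mock arrays, 0.51 with *miR-486-5p* and −1.15 with *miR-486-3p*. *TPX2*, which targets *KIF11* and *KIF15* to the spindle, had 4.85 and 4.90 on the mock arrays, 4.03 with *miR-486-5p* and 1.66 with *miR-486-3p*. The *miR-486-3p* array was the lowest for all 3, with differences of −4.21, −3.36 and −3.22 (limma adjusted p of 0.0076 for each). *RACGAP1*, which forms centralspindlin with *KIF23*, fell by 2.04 (limma adjusted p = 0.0088). The microtubule plus-end proteins stood apart: *MAPRE1* had a mean difference of −0.20, with 1 of its 2 probes called lower (−0.59, limma adjusted p = 0.0265), and *MAPRE3* one of 1.48 that limma did not call (adjusted p = 0.0673). *CENPE*, a kinetochore kinesin without a KIF symbol, had 1.504 and 1.470 on the mock arrays, 0.83 with *miR-486-5p* and −1.75 with *miR-486-3p*, a difference of −3.24 (limma adjusted p = 0.0076).

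The light chains, adaptors and cargo linkers of the transport kinesins had no shared direction after *miR-486-3p*. Of 14 genes, limma called 4 lower (28.6%, beside 31.6% of all genes) and 6 higher (42.9%, beside 31.9%), with a median of 0.26. *KLC4*, a light chain, was 1.80 higher (limma adjusted p = 0.0091), *MAPK8IP3* (JIP3), an adaptor, 1.28 higher (adjusted p = 0.0090), and *KIFAP3*, which links *KIF3A* and *KIF3B* to cargo, 1.02 higher (adjusted p = 0.0113). *MAPK8IP1* (JIP1) fell by 0.62 and *KLC3* fell by 0.56 (limma adjusted p of 0.0220 and 0.0465), and *TRAK1*, a mitochondrial adaptor, was −1.04 by 1 probe (adjusted p = 0.0129) and 0.07 by the other. After *miR-486-5p* the median was 0.41. No gene was below −0.5, and 5 of 14 (35.7%) were above 0.5, beside 13.8% of all genes. limma called 1 of 14 higher (3.58% of all genes), and 8 with an intensity trend (22.2% of all genes).

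Dynein and dynactin, which move cargo the opposite way along microtubules, had members on both sides as well. After *miR-486-3p* limma called 4 of 21 genes lower (19%, beside 31.6% of all genes) and 11 higher (52.4%, beside 31.9%), with a median of 0.38. *NDE1*, a mitotic regulator of dynein, had the lowest difference (−1.44, both probes called, limma adjusted p of 0.0087 and 0.0156), and its relative *NDEL1* was 1.01 higher (adjusted p of 0.0155 and 0.0223). The heavy chain *DYNC1H1* fell by 0.85 (limma adjusted p = 0.0139), and *DCTN1* was −1.55 by 1 probe (adjusted p = 0.0135) and 0.07 by the other. *DYNC1I1*, an intermediate chain best known from neurons, rose after both strands, by 1.11 after *miR-486-5p* (limma adjusted p = 0.0475) and by 1.84 after *miR-486-3p* (adjusted p = 0.0076), and *DYNLL2* was 1.04 higher after *miR-486-3p* (adjusted p = 0.0110).

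Changes after *miR-486-3p* depend on how the arrays are scaled, since the median of all genes was 0.06 with the 75th percentile and −0.35 with the median of each array. With median scaling the transport median turned from 0.26 to −0.15. Such a scaling moves all genes of an array by the same amount, so it cannot change the gap between the mitotic and the transport median or a value relative to the median of all genes, which was 0.20 for the transport kinesins. The normexp background correction is no such shift, and with it that value was 0.04. The shares of lower among all genes called after *miR-486-3p* were 49.8% and 70.3%. Over all genes limma called 5261 lower and 5309 higher, against 7814 and 3299 with median scaling. Among kinesins it called 17 lower and 13 higher, against 20 and 11.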

How the data were processed

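The authors deposited the Agilent Feature Extraction 12.1.1.1 output of each array, in which every spot has a background-corrected intensity on a linear scale, with flags for spots well above background and for outliers. They also deposited log2 values of the same arrays, whose quartiles were 0.15, 2.76 and 6.28 on every array. Their normalization is not given in the sources used here. The intensities were used here, and the log2 values as an alternative.

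Outlier spots (50 to 72 an array) were removed, log2 signals were centered on the 75th percentile of their array, and spots of a probe were averaged. Of 33080 probes listed by a RefSeq accession, 31104 got a gene name from RefSeq's GRCh38.p14 tables, which also held the promoters. The arrays were annotated on another assembly, so no other coordinates were taken. A probe entered a comparison when the transfected array, or each mock array, showed it well above background, and a dim side was raised to the lowest signal well above background on that array. The limma fits used the signals without this step. limma 3.58.1 (R 4.3.3) was fitted to 33498 probes of the 4 arrays in 3 groups, with 1 residual degree of freedom, a prior of 1.75 degrees of freedom and a prior SD of 0.0893. One called probe was enough to call its gene. The fit was also run on simulated arrays with known differences, all given the same spread. That run cannot show whether a strand array varies as the mock arrays did. Tables and motif counts were made with Python 3.11.15 and pandas 2.3.3.

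The kinesin members, classes, partner lists and markers were chosen with earlier results of these data known. All members were named. Of the partner lists, the 3 lowest and 3 highest differences after *miR-486-3p* among genes with a probe well above background on all 4 arrays were named, with *CENPE*. *PLK1* of the partners, and *KIF2B* and *KIF4B*, gave no value, and *STARD9* differed by −0.01 and −0.10 after *miR-486-5p* and *miR-486-3p*. Alternatives were each mock array left out, median and quantile scaling, the deposited log2 values, normexp (offset 50), other filters and probe rules, a limit of 1, an intensity trend, Student's test of the methods, and *KIF2A* counted as mitotic.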

Additional observations from a re-analysis of the deposited data

How the results depend on the processing

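The direction of every kinesin past 0.5 was kept under all alternatives that gave a value, except *KIF18B* after *miR-486-3p* with normexp (0.0102). The size was less stable. After *miR-486-5p*, 8 of 19 such kinesins came within 0.5 under some alternative (*KIF18A*, *KIF1A*, *KIF20B*, *KIF23*, *KIF25*, *KIF26A*, *KIF5A* and *KIF9*). After *miR-486-3p* this held for 5 of 26 (*KIF13A*, *KIF18B*, *KIF5A*, *KIF7* and *KIF9*), and between the strands for 9 of 29. No paired analysis was possible because each strand has 1 array and no replicate number to share with the mock arrays. Without 1 mock array limma keeps no residual degree of freedom, so only differences were recomputed. The mitotic median was then −0.89 to −0.87 after *miR-486-5p* and −2.75 to −2.73 after *miR-486-3p*, the transport median −0.0704 to −0.0344 and 0.22 to 0.24, the mitotic genes below −0.5 numbered 10 to 11 and 12, and transport genes numbered 3 below and 1 above after *miR-486-5p* and 3 to 4 below and 6 to 7 above after *miR-486-3p*. 

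After *miR-486-5p* the mitotic median was −0.81 with the brightest probe, −0.97 with median scaling and −0.75 with normexp, and the transport median −0.10 with median scaling. Kinesins called lower numbered 18 with median scaling, 19 with normexp (5 higher) and 21 with an intensity trend (5 higher). Over all genes, lower calls numbered 2432, 3845 and 4170 in the same order, beside 1109 in the main fit. Higher calls numbered 1028, 3695 and 3699, beside 596. Over probes well above background on all 4 arrays, 18 kinesins were called lower and 5 higher. No kinesin was called lower without a filter or by the methods' t-test after adjustment. Unadjusted, that test called 9 kinesins lower and 1 higher. Counts of all genes are not given for these filters and that test, so whether these kinesin counts depart from all genes is not shown. With the authors' log2 values no gene was called. Transport genes above 0.5 numbered 2 with the brightest probe and 0 with normexp. With normexp, 8 mitotic genes were below −0.5 in place of 11, and 1316 of all genes in place of 2549. With a limit of 1, 3 mitotic genes were below and 0 transport genes above.

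After *miR-486-3p* the mitotic median was −3.14 with median scaling, −2.81 with quantile normalization, −2.81 with the authors' log2 values and −2.11 with normexp. The transport median was 0.48 with the brightest and −0.0076 with the lowest probe, −0.15 with median scaling, 0.18 with quantile normalization, 0.18 with the authors' log2 values and 0.13 with normexp. With median scaling 6 transport genes were below −0.5. With normexp, 11 mitotic genes were below −0.5 in place of 12, and 3072 of all genes in place of 4467. The methods' t-test called 14 kinesins lower and 7 higher unadjusted, and 0 lower and 0 higher after adjustment. Counts of all genes are not given for that test, so whether these kinesin counts depart from all genes is not shown. Between the strands the mitotic median was −2.16 with median scaling and −1.13 with normexp. The transport median was −0.11 and 0.0663 in the same order, and 0.43 without a filter. Transport genes below numbered 1 with normexp and 2 with a limit of 1. With normexp, 10 mitotic genes were below −0.5 in place of 12, and 2801 of all genes in place of 4378. The cause of these shifts was not tested. Among all genes called, lower calls made up 65.0% after *miR-486-5p* (70.3% with median scaling, 51.0% with normexp) and 50.6% between the strands (67.5% with median scaling). With 1 array a strand, the number of arrays limits what can be shown, and 5 kinesins lay too near background to be measured.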
